A study of Mus musculus with 14 samples.

Results

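Matricellular proteins are secreted into the extracellular matrix but serve less as its scaffold than as signals between the matrix and the cells on it. The genes studied here are Tnc (tenascin-C), Postn (periostin), Cthrc1, the thrombospondins Thbs1, Thbs2 and Thbs4, Spp1 (osteopontin), Sparc and the CCN family members Ccn2 (connective tissue growth factor) and Ccn5. A probe set of the array was counted as a member if the platform annotation gave it exactly 1 gene symbol and that symbol was among these 10. This selected 15 of 45101 probe sets, which measured 9 of the 10 genes. Spp1 had no probe set under its symbol in the annotation used here and is not analysed here, and 1 probe set annotated to Thbs1 together with another gene was left out.

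RNA of the whole left ventricle came from male C57BL/6 mice that carried either intact Hspb8 (WT) or a deletion of it (KO); Hspb8 encodes Hsp22, also named H11 kinase, a small heat shock protein. Basal hearts, without pressure overload, gave 3 WT and 3 KO arrays. Hearts 3 days after TAC (transverse aortic constriction, surgical narrowing of the aortic arch, which makes the left ventricle pump against a raised pressure) gave 4 WT and 4 KO arrays. The sources used here give neither the ages of the mice, nor the deleted part of Hspb8, nor a sham-operated group, so that pressure and surgery cannot be told apart. By the names of their array files, basal and TAC arrays were run at widely separated times. In each comparison of TAC with basal hearts the run therefore cannot be told apart from the operation. Basal KO 3 carries another day in its file name than the other basal arrays. Whether every array stands for its own mouse is not labelled, and the p-values then reflect the spread among these samples, which may be technical.

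In the healthy adult ventricle fibroblasts are the best-known source of most of these transcripts. Tissue injury and mechanical load are known to raise tenascin-C, periostin and Cthrc1 in activated fibroblasts. Thrombospondins bind matrix proteins, growth factors and cell surface receptors, and Thbs1 can release TGF-beta from its latent complex. Sparc binds collagen and assists its deposition, Ccn2 is a target of TGF-beta and of mechanical signals, and Ccn5 lacks the carboxy-terminal domain of its CCN relatives and is known for effects opposed to those of Ccn2.

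The values are RMA log2 values per probe set, on which a step of 1 is a doubling; they rank arrays for 1 probe set and do not compare the abundance of different genes. Testing required a value above 5.75, the table's median, in 3 or more arrays. Of the members, 14 of 15 probe sets passed, among them at least 1 for each of the 9 genes. The one that did not was the second Tnc probe set (1456344_at), with group means of 3.76 to 5.46. Where a gene had several probe sets, the one with the highest mean over all arrays is called its leading probe set. A difference is called changed when limma's moderated test gave a Benjamini-Hochberg adjusted p under 0.05 over all 24525 probe sets tested. All adjusted p-values are from that fit, SE is its standard error, and ± is the SD between arrays.

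Hspb8 read 10.26 or more in each WT array and 5.92 or less in each KO array on 2 of its 3 probe sets (1417013_at and 1417014_at), as labelled. The third (1456434_x_at) was lower in KO by log2 -1.08 in basal hearts and -0.60 after TAC without passing (adjusted p = 0.196 and 0.274). Its genotypes did not overlap within either condition. Of all probe sets tested, 5.80% lay wholly lower in KO in basal hearts and 2.59% after TAC. Arrays of a group correlated with r of 0.989 or more in basal hearts, 0.986 to 0.995 in TAC KO and 0.967 to 0.993 in TAC WT. The TAC WT group was the least uniform, with the lowest mean correlation to its own group in TAC WT 3 (0.978) and TAC WT 1 (0.981). On the members these stood at opposite ends: TAC WT 1 was the lowest of all 8 TAC arrays on 9 of 14 probe sets, and TAC WT 3 was the highest of its group on 9 of 14. The number of arrays limits the precision.

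After TAC most of the matricellular genes were higher in both genotypes. In WT hearts 8 of 14 probe sets rose and 1 fell, where 50.2% of all probe sets tested passed (27.8% rose and 22.4% fell). In KO hearts 11 of 14 rose and 1 fell, where 43.2% of all passed (23.0% rose and 20.2% fell). At an unadjusted p under 0.05 the counts were 11 of 14 in WT, where 57.4% of all had such a p, and 13 of 14 in KO, where 52.5% did. By leading probe set, 7 of 9 genes rose in WT and 8 of 9 in KO, and the median log2 difference of the 14 probe sets was 0.59 in WT and 1.53 in KO, beside 0.04 and 0.00 over all probe sets tested. These counts include Cthrc1, whose basal arrays all lay below the filter value. Without it 7 of 13 probe sets rose in WT and 10 of 13 in KO, with the same medians, and by leading probe set 6 of 8 genes rose in WT and 7 of 8 in KO. The TAC and basal groups did not overlap on 6 probe sets that were higher in WT and on 12 in KO, where 26.7% and 27.5% of all probe sets did so. They did not overlap on 1 lower probe set in each genotype, where 23.0% and 24.9% of all did so. Whole-tissue RNA does not separate more cells of a type from more RNA per cell.

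**Figure D1:**
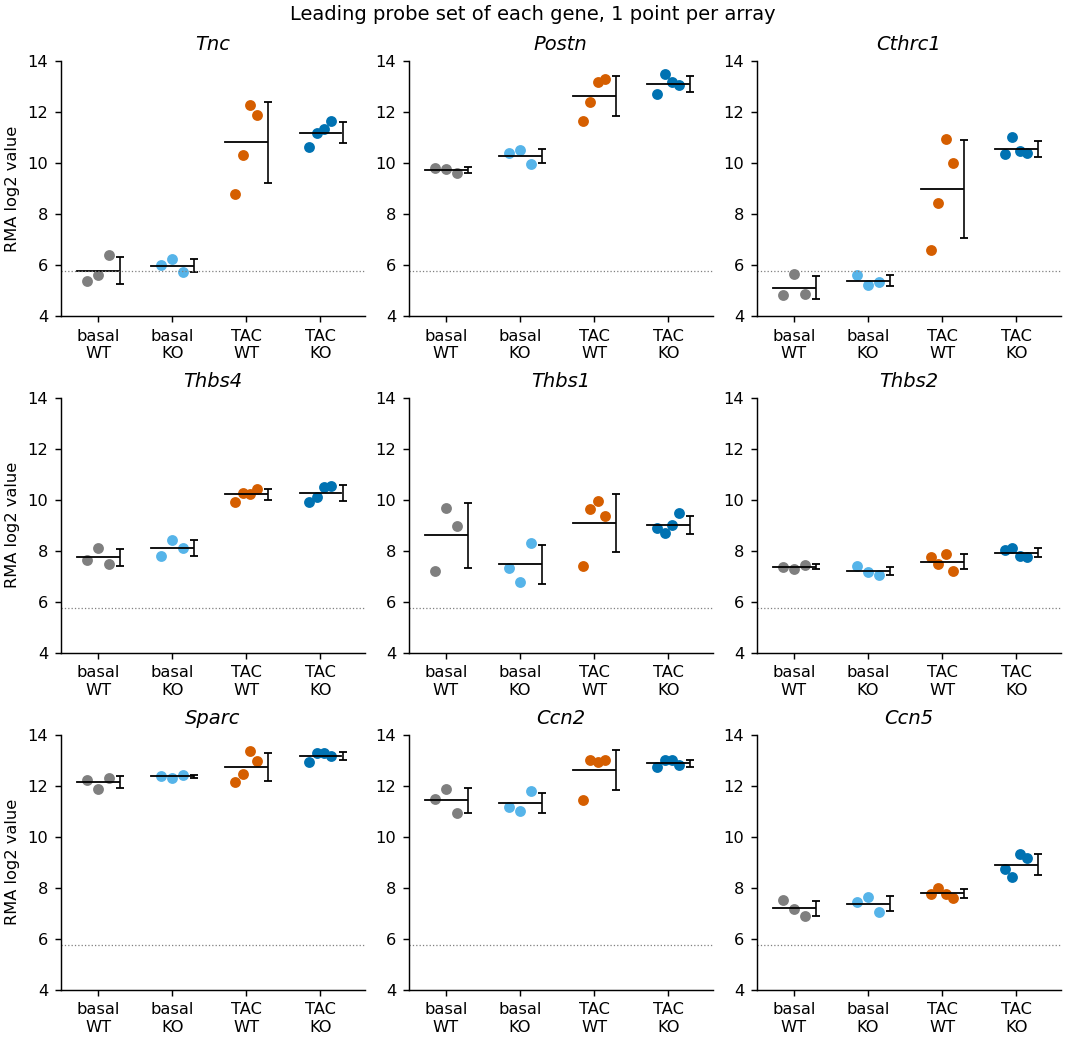
RMA log2 value of the leading probe set of each of the 9 measured genes (y axis) in basal WT, basal KO, TAC WT and TAC KO hearts (x axis), with 1 point per array, a line at the group mean, a bar of 1 SD and a dotted line at the filter value of 5.75. Tnc, Cthrc1, Postn and Thbs4 lie far above basal after TAC in both genotypes, TAC WT spreads from 8.78 to 12.27 on Tnc and from 6.58 to 10.96 on Cthrc1, and Ccn5 lies higher in the 4 TAC KO arrays than in the 4 TAC WT arrays.

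The upstream sequences of Tnc, Postn and Thbs4, the 3 most strongly raised genes with a promoter sequence at hand, are shown to let a reader compare them. That of Thbs2 is added, since 1 of its 3 probe sets passed between genotypes after TAC. The 250 bases before the most upstream annotated start are printed 5′ to 3′ on the gene's strand, from RefSeq on GRCm38.p6. Tnc lies at chr4:64047016-64047265, minus strand. Postn lies at chr3:54359017-54359266, plus strand. Thbs4 lies at chr13:92794819-92795068, minus strand. Thbs2 lies at chr17:14694263-14694512, minus strand. Capitals mark letters that match, on either strand, 1 of 5 motifs: those of AP-1 (TGANTCA), of the TEAD factors (CATTCC) and of the SMAD factors (CAGACA), the TATA box (TATAAA) and the CArG box.
Tnc: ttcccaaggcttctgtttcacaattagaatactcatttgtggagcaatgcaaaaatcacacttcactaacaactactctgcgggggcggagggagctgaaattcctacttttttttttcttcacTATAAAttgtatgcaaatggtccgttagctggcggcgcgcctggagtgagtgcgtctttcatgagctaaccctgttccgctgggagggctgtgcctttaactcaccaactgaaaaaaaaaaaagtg
Postn: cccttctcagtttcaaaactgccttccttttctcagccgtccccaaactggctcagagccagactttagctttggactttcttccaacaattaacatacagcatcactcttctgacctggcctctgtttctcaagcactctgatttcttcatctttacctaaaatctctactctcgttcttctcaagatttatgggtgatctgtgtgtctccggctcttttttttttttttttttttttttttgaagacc
Thbs4: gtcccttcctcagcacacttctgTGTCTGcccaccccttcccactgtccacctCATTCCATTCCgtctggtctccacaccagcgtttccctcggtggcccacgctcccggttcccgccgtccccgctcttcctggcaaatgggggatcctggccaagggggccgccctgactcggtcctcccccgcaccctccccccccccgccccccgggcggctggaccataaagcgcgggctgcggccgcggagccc
Thbs2: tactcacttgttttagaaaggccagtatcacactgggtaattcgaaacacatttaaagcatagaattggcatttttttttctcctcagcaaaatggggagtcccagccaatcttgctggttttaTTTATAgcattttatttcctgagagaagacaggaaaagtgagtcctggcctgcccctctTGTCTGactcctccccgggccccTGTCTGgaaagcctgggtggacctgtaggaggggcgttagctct

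No motif was common to all 4 windows. Tnc holds TATAAA on the gene's strand at -126 to -121 from the start, Thbs2 holds it on the opposite strand at the same distance, and it occurs in 13.0% of the 27025 promoter windows of this length. Thbs4 holds a pair of TEAD matches that overlap by 1 base, at -197 to -192 and -192 to -187, and 12.6% of all windows hold at least 1. The SMAD letters occur at 2 places in Thbs2 and at 1 in Thbs4, and 17.1% of all windows hold them. Postn holds none of the 5, and no window of these 4 genes holds the AP-1 letters (6.85% of all) or a CArG box (1.41%). A match is a run of letters and says nothing about binding.

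Tnc (chromosome 4, 63959785 to 64047015), a large glycoprotein that is nearly silent in healthy adult heart and appears around injury, differed by more than 5 log2 units between TAC and basal hearts in both genotypes. Its leading probe set read 5.36, 5.60 and 6.40 in basal WT and 8.78, 10.33, 12.27 and 11.87 in TAC WT. In KO it read 6.00, 6.23 and 5.72 in basal hearts and 10.63, 11.18, 11.33 and 11.64 after TAC. Every TAC array lay above every basal array, and the TAC WT arrays alone spanned more than 3 log2 units. Tnc was higher after TAC by log2 5.03 in WT (SE 0.62, adjusted p = 8.34e-05, 4 against 3 arrays) and by log2 5.21 in KO (SE 0.62, adjusted p = 0.000126). The basal WT mean of 5.79 lies at the edge of the filter value. The dim second probe set had its highest value, 7.36, in the same array as the leading one, TAC WT 3.

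Postn (chromosome 3, 54359267 to 54391041), a matrix protein of activated fibroblasts that takes part in collagen assembly, was above the filter value in every basal array. Basal WT read 9.81, 9.76 and 9.6, basal KO 10.38, 10.51 and 9.96. After TAC it read 11.64, 12.41, 13.18 and 13.29 in WT and 12.72, 13.48, 13.19 and 13.06 in KO. The basal KO arrays all lay above the basal WT arrays, as they did on 7.24% of all probe sets (5.80% lay wholly below), and the difference of log2 0.56 did not pass (95% interval -0.17 to 1.29, adjusted p = 0.942). The rise after TAC was 7.5-fold in WT (log2 2.91, SE 0.32, adjusted p = 4.85e-05) and 7.11-fold in KO (log2 2.83, SE 0.32, adjusted p = 9.52e-05).

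Cthrc1 (chromosome 15, 39076932 to 39087121) encodes a secreted protein that appears in activated fibroblasts and in injured vessel walls. All 6 basal arrays lay below the filter value, at 4.84, 5.66 and 4.86 in WT and 5.63, 5.21 and 5.32 in KO, so that it entered the test through its TAC arrays alone and had to differ between TAC and basal hearts. After TAC it read 6.58, 8.42, 10.96 and 10.00 in WT and 10.34, 11.03, 10.49 and 10.38 in KO. The 4 KO arrays lay within 0.7 log2 units of each other, whereas TAC WT 1 was within 1 log2 unit of the highest basal array. Its group means after TAC were 8.99 ± 1.92 (SD, n = 4) in WT and 10.56 ± 0.32 (SD, n = 4) in KO. They stood above basal means of 5.12 and 5.39, which lie below the filter value, and no test of TAC is read from them. KO exceeded WT after TAC by log2 1.57 with overlapping groups, which did not pass (95% interval 0.15 to 2.99, unadjusted p = 0.0328, adjusted p = 0.57).

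The 3 thrombospondins behaved differently from each other. Thbs4 (chromosome 13, 92751586 to 92794818), a pentameric thrombospondin of tendon and muscle that is known to rise in the loaded heart, had the largest rise of the set relative to its SE in both genotypes. It read 7.63, 8.10 and 7.49 in basal WT and 7.79, 8.42 and 8.13 in basal KO. After TAC it read 9.92, 10.28, 10.24 and 10.43 in WT and 9.93, 10.11, 10.51 and 10.55 in KO. Basal and TAC arrays were well separated, and the genotypes overlapped in both conditions. Thbs4 rose 5.57-fold in WT (log2 2.48, SE 0.20, adjusted p = 1.12e-05) and 4.47-fold in KO (log2 2.16, SE 0.20, adjusted p = 5.12e-05). Genotypes after TAC differed by log2 0.06, with a 95% interval of -0.34 to 0.46. Beside this rise, the summed linear level of the 6 tendon and cartilage markers that passed the filter ran from 856 to 1052 in basal hearts and from 297 to 655 after TAC. The sum follows Cytl1 most, which had the highest basal value of the 6 and fell by log2 -2.38 in WT and -1.42 in KO. Of the 6, Cytl1, Chad and Fmod fell in both genotypes, where 22.4% and 20.2% of all probe sets fell. Acan and Sox9 passed in neither. Tnmd and Mkx, defining markers of tendon, were below the filter with group means of 3.56 to 4.21. Scx, the transcription factor of tendon cells, rose in KO by log2 0.53 from a basal mean below the filter (adjusted p = 0.0229) and was at log2 0.19 in WT (adjusted p = 0.356). The part of tendon cells in the Thbs4 rise was not tested.

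Thbs1 (chromosome 2, 118111876 to 118127133), a trimeric thrombospondin that responds quickly to injury and activates latent TGF-beta, spread widely within groups. Its leading probe set read 7.19, 9.67 and 8.98 in basal WT, 7.34, 6.79 and 8.30 in basal KO, 7.4, 9.63, 9.97 and 9.37 in TAC WT and 8.89, 8.68, 9.0 and 9.48 in TAC KO. Basal WT 1 and TAC WT 1 both lay more than 1 log2 unit below the rest of their groups, and the second probe set (1450377_at) showed the same arrays low, at 6.96 and 7.07. In WT the TAC difference was log2 0.48 (SE 0.62, adjusted p = 0.531). In KO it was log2 1.54 (SE 0.62, adjusted p = 0.0576) with groups that did not overlap, and on the second probe set it was log2 0.76 (adjusted p = 0.348). The leading probe set passed in KO when any 1 of 5 arrays was left out (TAC WT 1, TAC WT 3, basal KO 3, basal WT 1 and basal WT 2, adjusted p = 0.0189 to 0.0489), with array weights (adjusted p = 0.018) and when KO arrays alone were fitted (adjusted p = 0.00347).

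Thbs2 (chromosome 17, 14665500 to 14694262), a trimeric thrombospondin that restrains vessel growth and matrix breakdown, rose in KO hearts on each of its 3 probe sets and on none in WT hearts. The probe set 1422571_at read 6.94, 7.10 and 6.94 in basal WT, 7.23, 7.08 and 6.80 in basal KO, 7.46, 7.01, 7.52 and 7.25 in TAC WT and 8.24, 8.24, 8.13 and 8.15 in TAC KO. The 4 TAC KO arrays lay within 0.11 of each other and above every other array. Its TAC difference was log2 1.15 in KO (SE 0.13, adjusted p = 0.00011) and log2 0.32 in WT (SE 0.13, adjusted p = 0.0627). The leading probe set (1450663_at) gave log2 0.71 in KO (adjusted p = 0.00292) and 0.20 in WT (adjusted p = 0.281), and 1447862_x_at gave log2 0.65 in KO (adjusted p = 0.00399) and 0.35 in WT (adjusted p = 0.0634). The difference between the genotypes' TAC effects was itself tested and did not pass on any of the 3 (log2 0.84, adjusted p = 0.414 on 1422571_at; log2 0.51, adjusted p = 0.585 on the leading one; log2 0.30, adjusted p = 0.77 on the third). The WT result depended on the processing: without TAC WT 2, 1422571_at passed with log2 0.42 (adjusted p = 0.0173) and 1447862_x_at with log2 0.45 (adjusted p = 0.0205). Both also passed after median centring (adjusted p = 0.0243 and 0.028), and 1447862_x_at after quantile normalization (adjusted p = 0.0399).

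**Figure D2:**
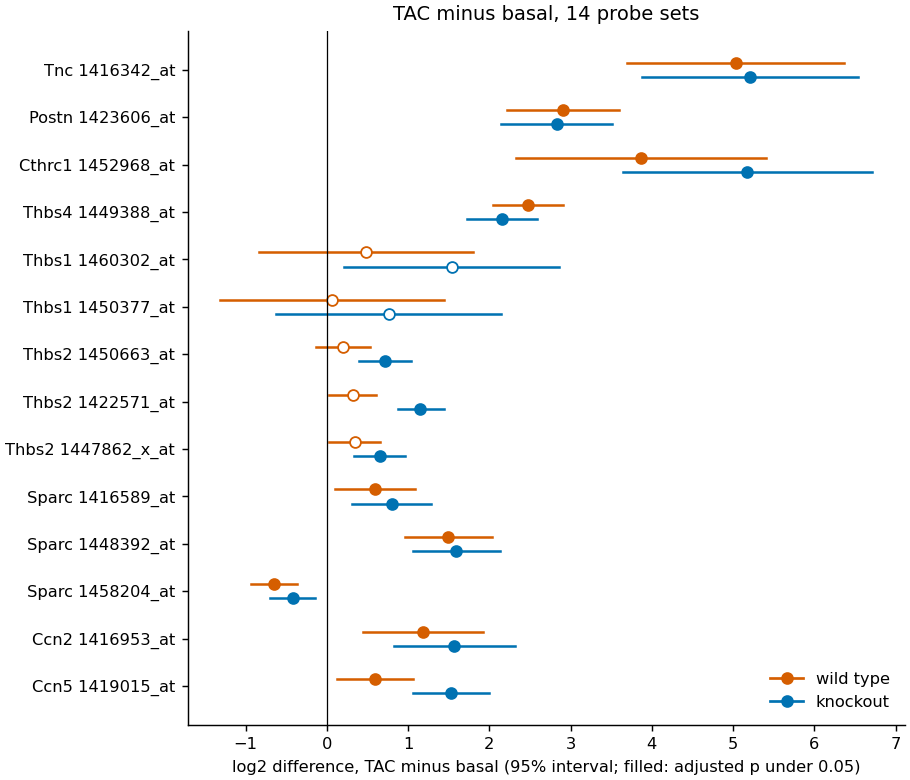
Log2 difference of TAC minus basal hearts (x axis) for the 14 tested probe sets (y axis) in WT and KO, with 95% intervals from limma; filled points have an adjusted p under 0.05. Tnc, Postn and Thbs4 exceed log2 2 in both genotypes, the 3 Thbs2 probe sets are filled in KO and open in WT, and Sparc 1458204_at lies below 0. Cthrc1 is drawn as well, but its basal arrays all lay below the filter value, so no test of TAC is read from it.

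Sparc (chromosome 11, 55394159 to 55420080), a collagen-binding glycoprotein, had probe sets that did not move together. The leading one (1416589_at) read 12.23, 11.88 and 12.31 in basal WT and 12.36, 12.29 and 12.42 in basal KO. It read 12.14, 12.46, 13.37 and 12.95 in TAC WT and 12.91, 13.27, 13.26 and 13.17 in TAC KO. The TAC WT arrays overlapped the basal ones, while the TAC KO arrays did not. It rose by log2 0.59 in WT (SE 0.23, adjusted p = 0.0442) and by log2 0.80 in KO (SE 0.23, adjusted p = 0.0134). The WT call was lost without any 1 of 11 arrays (adjusted p = 0.0521 to 0.166), among them TAC WT 3 (log2 0.38, adjusted p = 0.111), after quantile normalization (adjusted p = 0.0753), with array weights (adjusted p = 0.101) and when WT arrays alone were fitted (adjusted p = 0.125). Of the arrays left out in turn, it was kept only without TAC WT 1, TAC WT 2 or TAC KO 1.

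The second Sparc probe set (1448392_at) rose by log2 1.49 in WT (SE 0.25, adjusted p = 0.000497) and by log2 1.59 in KO (SE 0.25, adjusted p = 0.000505), with no overlap between TAC and basal arrays. The third (1458204_at) fell, by log2 -0.65 in WT (SE 0.13, adjusted p = 0.00148) and by log2 -0.42 in KO (SE 0.13, adjusted p = 0.0185). The KO fall did not pass without basal KO 1 (adjusted p = 0.0759) or TAC KO 4 (adjusted p = 0.0517). The transcripts that each of them detects are not given in the files, and which part of the gene they cover was not tested.

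**Figure D3:**
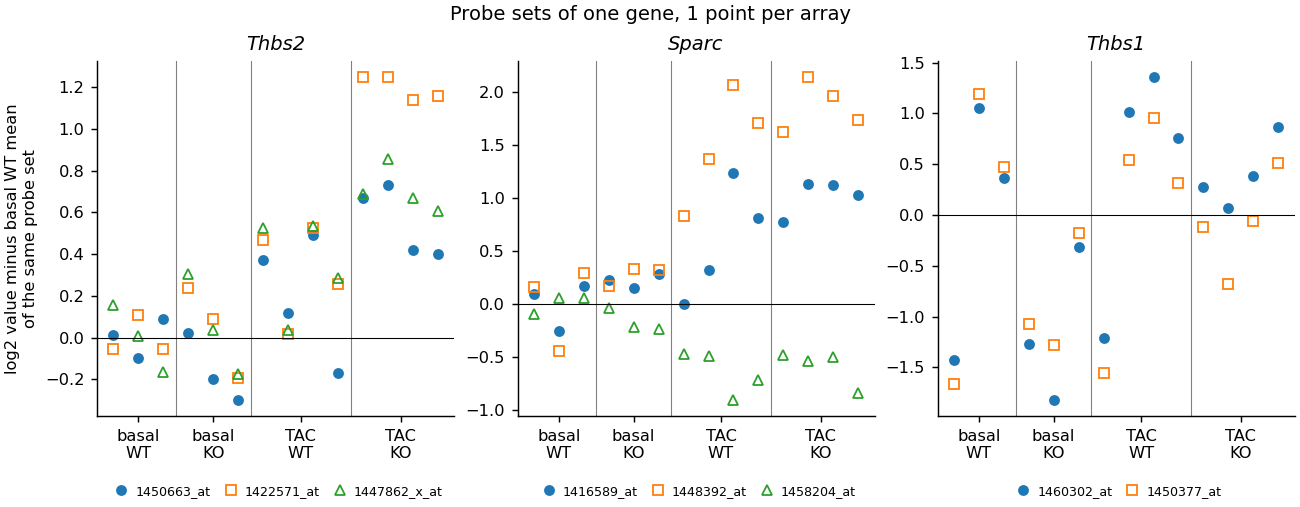
Log2 value of each array minus the basal WT mean of the same probe set (y axis) for the tested probe sets of Thbs2, Sparc and Thbs1, with the arrays in label order within basal WT, basal KO, TAC WT and TAC KO (x axis). The Thbs2 probe sets all have their highest group mean in TAC KO, Sparc 1458204_at moves opposite to the other Sparc probe sets, and both Thbs1 probe sets place basal WT 1 and TAC WT 1 more than 1 log2 unit below the basal WT mean.

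Of the CCN family, Ccn2 (chromosome 10, 24595442 to 24598683), a target of TGF-beta and of stretch, read 11.48, 11.87 and 10.91 in basal WT, 11.16, 11.0 and 11.77 in basal KO, 11.44, 13.02, 12.94 and 13.01 in TAC WT and 12.73, 13.00, 13.00 and 12.79 in TAC KO. TAC WT 1 was at the basal level, and the other 7 TAC arrays lay within 0.29 of each other. Ccn2 rose 2.27-fold in WT (log2 1.18, SE 0.34, adjusted p = 0.0125) and 2.97-fold in KO (log2 1.57, SE 0.34, adjusted p = 0.00332). Without TAC WT 1 the WT difference was log2 1.57 (adjusted p = 0.000174). The WT call was lost without basal WT 3 (log2 0.93, adjusted p = 0.0662) and when WT arrays alone were fitted (adjusted p = 0.0531).

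Ccn5 (chromosome 2, 163820752 to 163833146), the CCN member known for actions opposed to Ccn2, read 7.5, 7.15 and 6.89 in basal WT, 7.44, 7.64 and 7.04 in basal KO, 7.75, 8.0, 7.74 and 7.60 in TAC WT and 8.71, 8.41, 9.33 and 9.16 in TAC KO. Each TAC group lay above its basal group, and each TAC KO array lay above each TAC WT array. The rise was log2 0.59 in WT (SE 0.22, adjusted p = 0.0371) and log2 1.53 in KO (SE 0.22, adjusted p = 0.000326). The WT call was lost without basal WT 2, basal WT 3, TAC WT 2 or TAC WT 3 (adjusted p = 0.0552 to 0.153) and after quantile normalization (log2 0.45, adjusted p = 0.0949). The difference between the TAC effects of KO and WT was log2 0.94 (95% interval 0.27 to 1.60, unadjusted p = 0.00917) and did not pass (adjusted p = 0.499).

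Between genotypes, no member differed in basal hearts: 0 of 14 probe sets passed in limma, also 0 at an unadjusted p under 0.05, where 0.00815% of all probe sets passed (the pair of Hspb8) and 5.70% had an unadjusted p under 0.05. The 95% intervals were wide for some, from log2 -2.55 to 0.28 for the leading Thbs1 probe set and from log2 -1.22 to 1.62 for Tnc, and narrow for Thbs4, from log2 -0.09 to 0.84. After TAC 1 of 14 probe sets was higher in KO, where 0.0285% of all probe sets passed and 0.0204% were higher (5 of 24525). This was Thbs2 on 1422571_at, 1.84-fold higher (log2 0.88, SE 0.12, 95% interval 0.61 to 1.15, adjusted p = 0.029). The call was lost without any 1 of 8 arrays, which were each of the 4 TAC KO arrays, TAC WT 2, basal KO 2, basal WT 1 and basal WT 3 (adjusted p = 0.0535 to 0.141, log2 0.78 to 0.90), and when TAC arrays alone were fitted (adjusted p = 0.169). The leading and the third Thbs2 probe sets were higher in KO by log2 0.35 and 0.36 without passing (adjusted p = 0.545 and 0.515), and the mean of the 3 gave log2 0.53 (adjusted p = 0.232 over genes).

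Ccn5 came next, 2.19-fold higher in KO after TAC (log2 1.13, SE 0.20, 95% interval 0.70 to 1.56), and did not pass (adjusted p = 0.0901). It passed without TAC WT 3 (log2 1.12, adjusted p = 0.0422). The KO arrays did not overlap the WT arrays on 3 of 14 probe sets, all higher (Ccn5 and 2 of Thbs2), where 1.60% of all probe sets were wholly higher and 2.59% wholly lower. Of the 14 differences 12 were above 0 and 5 had an unadjusted p under 0.05, where 8.18% of all had one, with a median of log2 0.36 beside -0.02 over all probe sets. The 14 probe sets stand for 9 genes, and TAC WT 1 was the lowest of all 8 TAC arrays on 9 of the 14. With 1 array left out in turn, the difference ran from log2 -0.30 to 0.87 for Tnc and from -0.11 to 0.42 for Ccn2. It ran from 0.15 to 0.70 for Postn, from 0.77 to 2.23 for Cthrc1 and from 0.99 to 1.29 for Ccn5. With array weights, which give irregular arrays less influence, 8 of 14 passed, all higher in KO: the 3 Thbs2 probe sets, Ccn5, Cthrc1 (log2 2.13, adjusted p = 0.01), Postn (log2 0.73, adjusted p = 0.0398) and 2 of Sparc. The share of all probe sets that passed with array weights is not at hand, so this count is not read as particular to the members. Of the differences between the genotypes' TAC effects, 0 of 14 passed, with 3 at an unadjusted p under 0.05. Over all probe sets 0% passed and 7.90% had such a p.

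**Figure D4:**
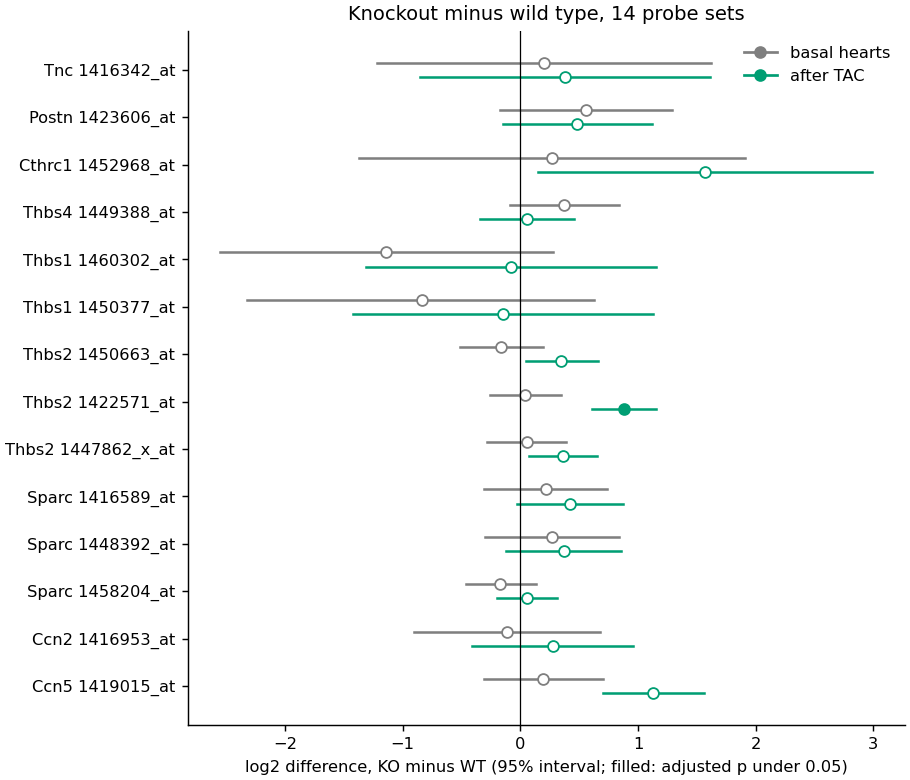
Log2 difference of KO minus WT (x axis) for the 14 tested probe sets (y axis) in basal hearts and after TAC, with 95% intervals from limma; filled points have an adjusted p under 0.05. Thbs2 1422571_at after TAC is the filled point, at log2 0.88, and Ccn5 lies at log2 1.13 with an interval above 0.

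Markers of the cells that could supply these transcripts did not all move in the same way after TAC. The summed linear level of 9 activated fibroblast markers ran from 5375 to 6835 in basal WT, 7081 to 7582 in basal KO, 8761 to 20579 in TAC WT and 15932 to 24033 in TAC KO. Of these, 7 rose in WT and 8 in KO, where 27.8% and 23.0% of all probe sets rose, among them Col8a1, a short-chain collagen (log2 3.56 in WT and 3.12 in KO), and Lox, the collagen crosslinking enzyme (log2 3.2 in WT and 4.0 in KO). Acta2 passed in KO only (log2 0.63, beside 0.52 in WT, adjusted p = 0.0528). Tagln passed in neither (log2 -0.13 in WT and 0.57 in KO, adjusted p = 0.725 and 0.136). Adam12 rose from basal means below the filter value in both genotypes, and Ltbp2 in WT, so they may have passed the filter through their TAC arrays. The counts above include them and are not read as a result beside the shares. All 9 passed the filter, as did the 13 general fibroblast markers, which split, with 5 higher and 5 lower in WT and 6 higher and 2 lower in KO. Col1a1 and Col3a1 rose in both genotypes, while Fbln1 fell by log2 -2.01 in WT and -1.97 in KO. The sum of the 13 ran from 30236 to 42079 in TAC WT and from 42556 to 53131 in TAC KO, and from 26247 to 32507 in basal WT and 32553 to 36730 in basal KO. In both conditions the highest WT sum lay just below the lowest KO sum. The basal sums of the 9 activated fibroblast markers also lay higher in each KO array than in each WT array. The brightest probe sets weigh most in such sums, and no share over comparable sums is at hand, so these orders are not read as a result. By leading probe set, none of the 13 or of the 9 passed between genotypes after TAC, as none of the matricellular genes did. The closest of the 13 was Mfap4, a microfibril protein, log2 1.02 higher in KO (adjusted p = 0.0901), which was picked out after its values were seen. The part of fibroblast number in the Thbs2 and Ccn5 differences was not tested.

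Of 15 macrophage and monocyte markers with a probe set, all of them past the filter, 9 rose and 1 fell in WT and 11 rose in KO. Over all probe sets tested, 27.8% rose and 22.4% fell in WT, and 23.0% rose and 20.2% fell in KO. Itgam and Fcgr1, which rose in both genotypes, and Cx3cr1, which rose in KO, had basal means below the filter value in both genotypes. These markers may have passed the filter through their TAC arrays. The counts above and the summed level below include them, and the counts are not read as a result beside the shares. The sum of the 15 markers ran from 4864 to 6036 in basal WT, 6564 to 7361 in basal KO, 7223 to 24295 in TAC WT and 12832 to 17235 in TAC KO. The highest value, 24295, was that of TAC WT 3, and the other TAC WT arrays read 7223, 8227 and 9281. Within TAC WT, TAC WT 3 also gave the highest Tnc and Cthrc1 values, and the part of macrophages in the members' values was not tested. The 12 cardiomyocyte markers were bright in every array (summed level 184512 to 235051). Of the 10 endothelial markers 5 fell and 1 rose in WT, and 4 fell and 1 rose in KO, and of the 9 smooth muscle and pericyte markers 3 rose and 3 fell in WT and 2 rose and 3 fell in KO. Of the 4 epicardial markers that passed the filter, 1 rose and 1 fell in WT and 1 rose in KO, and of the 5 erythroid and platelet markers 1 rose and 2 fell in WT and 1 rose and 3 fell in KO.

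**Figure D5:**
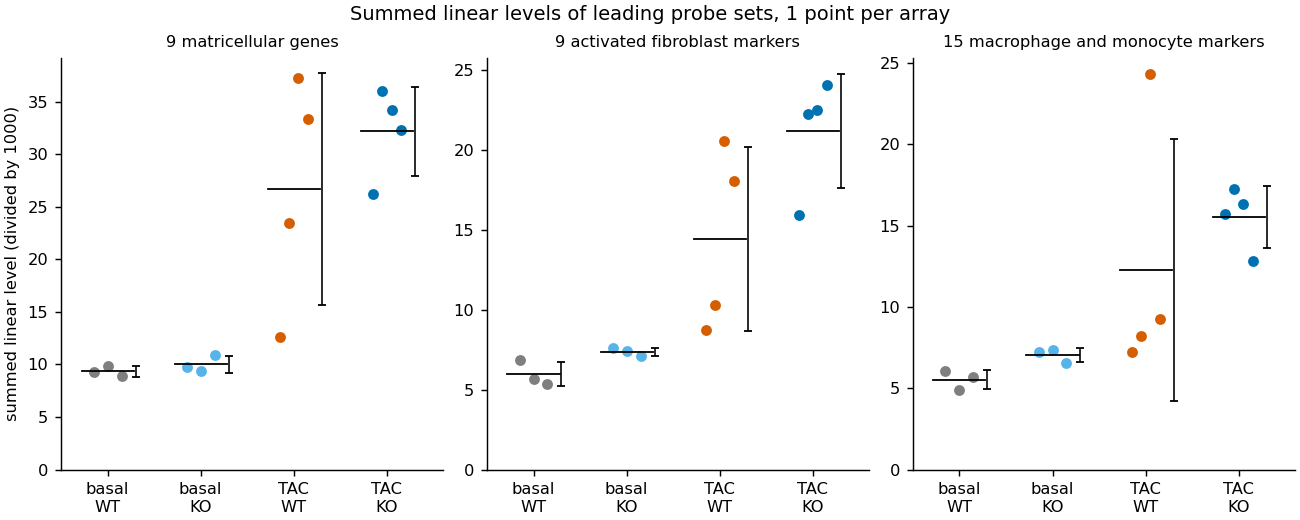
Summed linear level (2 to the power of the RMA log2 value, divided by 1000, y axis from 0) of the leading probe sets of the 9 matricellular genes, of 9 activated fibroblast markers and of 15 macrophage and monocyte markers in each array of the 4 groups (x axis), with group mean and 1 SD. All 3 sums are higher in every TAC array than in the basal arrays of the same genotype, and TAC WT 1 has the lowest and TAC WT 3 the highest sum within TAC WT.

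Other matricellular genes did not follow the members as a group. Of 20 listed, 14 passed the filter, of which 3 rose and 6 fell in WT (median log2 -0.39) and 4 rose and 3 fell in KO (median log2 0.04). Over all probe sets tested, 27.8% rose and 22.4% fell in WT, and 23.0% rose and 20.2% fell in KO. Fstl1, a secreted glycoprotein related to Sparc, rose 3.88-fold in WT (adjusted p = 0.00036) and 4.03-fold in KO (adjusted p = 0.000471). Ccn4, a CCN member of bone and wound healing, rose by log2 2.20 in WT (adjusted p = 0.0105) and by log2 2.89 in KO (adjusted p = 0.00292). Tgfbi, a relative of periostin, rose by log2 1.95 in KO (adjusted p = 0.00954) and was log2 1.17 higher in WT without passing (adjusted p = 0.0744). In contrast to Tnc, its family member Tnxb, the tenascin of loose connective tissue, fell by log2 -2.37 in WT (adjusted p = 0.000787) and -2.55 in KO (adjusted p = 0.000741). The Sparc relatives Spock2 (log2 -1.08 in WT, adjusted p = 0.00191, and -0.77 in KO, adjusted p = 0.0156) and Smoc1 (log2 -0.75, adjusted p = 0.00265, and -0.45, adjusted p = 0.0401) fell. No gene of this list passed between genotypes in either condition.

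Of 22 receptors for matricellular proteins that passed the filter, 8 rose and 2 fell in WT, where 27.8% of all probe sets rose and 22.4% fell. In KO 8 rose and 1 fell, where 23.0% rose and 20.2% fell. The share of the list that passed was close to that of all probe sets in both genotypes. Cd44, a receptor of osteopontin and hyaluronan, rose 6.49-fold in WT (adjusted p = 0.000421) and 6.37-fold in KO (adjusted p = 0.000658). Itgav, the integrin subunit that binds periostin, osteopontin and Ccn2, rose 2.62-fold (adjusted p = 0.000853) and 2.72-fold (adjusted p = 0.000951). Its partner Itgb1 rose 1.97-fold (adjusted p = 0.00145) and 2.04-fold (adjusted p = 0.00151). Itga1, a collagen-binding integrin subunit, rose by log2 0.61 in WT (adjusted p = 0.0104) and was at log2 -0.23 in KO (adjusted p = 0.289). Itgam, an integrin subunit of macrophages, rose by log2 1.58 in WT (adjusted p = 0.0202) and by log2 2.13 in KO (adjusted p = 0.00524), and its basal mean was below the filter in both genotypes.

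Among 22 genes of TGF-beta signalling and mechanical input, 9 rose and 2 fell in WT, and 10 rose and 3 fell in KO, beside 50.2% and 43.2% of all probe sets that passed in either direction. In WT the share that passed was close to that of all probe sets. The ligand Tgfb2 rose 4.31-fold in WT (adjusted p = 0.000279) and 4.44-fold in KO (adjusted p = 0.000393). Its receptor Tgfbr2 rose 1.79-fold in both (adjusted p = 0.000324 and 0.000495), and Tgfbr1 rose 2.32-fold in WT and 2.18-fold in KO (adjusted p = 0.000586 and 0.00127). Ltbp2, a fibrillin-binding protein that is also among the activated fibroblast markers, rose by log2 2.79 and 2.97 (adjusted p = 0.000541 and 0.000553), and fibronectin, Fn1, rose by log2 1.71 and 2.64 (adjusted p = 0.00981 and 0.0011). The basal WT mean of Ltbp2 lay below the filter value. No gene of the receptor or TGF-beta list passed between genotypes.

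For each member, the other genes with the most similar profile were found by the root mean square difference of their leading probe sets over the 14 arrays, after each was centred on its own mean. For Tnc these were Timp1, an inhibitor of metalloproteinases (0.585 log2 units), and Lox (0.836), against a median of 2.67 over all genes. Cthrc1 had the same pair, Lox at 0.669 and Timp1 at 0.674 (median 2.51). Postn was closest to Gask1b (0.294) and to the fibrillar collagen gene Col5a2 (0.348, median 1.52). Thbs4 was closest to Synpo2l, a Z-disc protein of muscle (0.263), and to Fgl2 (0.29, median 1.2). Thbs1 was closest to Junb, an immediate early transcription factor (0.427), and to Ugdh (0.488, median 1.04). Sparc was closest to Lgals1, a galectin (0.114), and Eva1b (0.126, median 0.535), and Ccn2 to Ptger4, a prostaglandin receptor (0.237), and Rnpc3 (0.327, median 0.849). Ccn5 was closest to Srpx (0.306) and to Nox4, an NADPH oxidase (0.321, median 0.769), and Thbs2 to Kcnd1 (0.174) and Rad50 (0.178, median 0.422). A gene that changes little lies closer to most others, so these distances are read within 1 member and not between members.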

How the data were processed

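Total RNA (10 μg) was labelled with biotin for each of the 14 Mouse430_2 arrays, per the labels. The authors deposited log2 values per probe set made with RMA, per the submitters' processing notes; no version is given there, nor whether the 14 arrays went through RMA as 1 batch. Raw intensities were not used here. Gene symbols came from the platform annotation, and were updated through gene numbers against RefSeq (GRCm38.p6). Exactly 1 symbol belonged to 34958 probe sets, several to 932 and none to 9211. After leaving out 64 control probe sets, 24525 passed the filter. A model of the 4 group means was fitted to all arrays with limma 3.58.1 in R 4.3.3 (10 residual and 3.73 prior degrees of freedom), checked on simulated data. The named genes were the members, Hspb8, up to 4 genes per pathway list with the smallest p in each TAC comparison, and the 2 nearest profiles per member. Markers and genes of call changes beyond that rule were named after their values were seen. The members and lists were chosen with earlier results of these data known. Alternatives changed the filter, probe set rule, scaling, variance model, weights, replicate block, arrays and a fold minimum of 1.5.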

Additional observations from a re-analysis of the deposited data

Results flagged for a closer look

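Each group of 4 arrays was examined on each of the 14 tested probe sets for an array that stood apart, which made 28 groups. An array was counted when its gap to the nearest other array exceeded, as a share of the group's range, Dixon's 95% critical value, which chance alone gives in about 1 of 20 groups. This gave 2. TAC WT 1 read 11.44 for Ccn2, where the other TAC WT arrays read 12.94 to 13.02. TAC KO 4 read 6.71 on the Sparc probe set 1458204_at, where the other TAC KO arrays read 7.01 to 7.07.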

How the results depend on the processing

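The count of members higher or lower after TAC stayed within 1.5 times under each alternative tried, from 6 (without basal WT 3) to 10 (without TAC WT 2) in WT and from 11 to 13 in KO when 1 array was left out. Of the count between genotypes after TAC, which was 1 of 14, the single call was lost (0) when only the compared arrays were fitted and with the replicate block. The count was also 0 with 1 probe set per gene and with probe sets averaged per gene. There the called probe set, which is not the leading one of Thbs2, was not tested on its own. With array weights 8 passed, without a share over all probe sets to set beside them. Leaving out 1 array gave 0 to 2. In basal hearts and for the difference of effects the count was 0 under each alternative. With the replicate block, Thbs2 1422571_at had an adjusted p of 0.0788 between genotypes after TAC, the Ccn5 rise in WT an adjusted p of 0.0796, and the leading Thbs1 probe set passed in KO (adjusted p = 0.05, below 0.05 before rounding). The same-numbered TAC arrays correlated in their deviations from group means at 0.579, -0.02, -0.085 and 0.503, and the basal ones at -0.035, 0.065 and -0.013. Arrays numbered 1 and 4 thus shared deviations after TAC, and the other same-numbered arrays hardly did. The labels do not say whether a shared number means a shared origin, and the main fit had no block. The median difference of all probe sets after TAC in WT was log2 0.04 as deposited, -0.06 after quantile normalization and 0.12 after median centring. Over the leading probe sets no called difference changed sign. Some that did not pass did, such as Tnc between genotypes after TAC (log2 -0.30 to 0.87). Of the recomputed values, 22 of 243 lost a call in WT after TAC and 8 of 243 gained one in KO. Few arrays per group and the dim basal readings of Cthrc1 and Tnc limit the precision.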
